A study of Mus musculus with 6 samples.

Results

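Transport of chloride, bicarbonate and sodium across the small intestinal epithelium was followed through 10 genes. They encode the apical anion channels Cftr and Ano1, the basolateral loading transporters Slc12a2 and Slc4a4, the basolateral potassium channels Kcnq1 and Kcnn4, the apical anion exchangers Slc26a3 and Slc26a6, and the apical sodium-proton exchangers Slc9a2 and Slc9a3. The members were all probe sets that the platform annotation paired with only 1 of these symbols, 23 of the 45101 probe sets on the array, and 20 of the 23 reached an intensity of 16 on at least 3 of the 6 arrays. Every gene had at least 1 such probe set. The genes were chosen with their values in this comparison known, so their differences between the groups are a description and carry no test.

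RNA came from epithelial cells detached from small intestines of 14-day-old C57BL/6 mice and was read on Affymetrix mouse arrays, 1 array per sample. The 3 replacement samples carried Ecadflox/Ncad;Vil-Cre, in which Vil-Cre, a recombinase driven by the villin promoter in gut epithelium, removes the floxed E-cadherin allele and leaves N-cadherin from the other. The 3 control samples came from littermates that kept E-cadherin, with a genotype given as Control only, so whether they carried Vil-Cre, the floxed allele or the N-cadherin allele is not given. Neither separate nor pooled animals are stated for the samples, so the p-values below measure the spread between these samples, which may be technical.

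Fluid secretion by the gut begins when Slc12a2 and Slc4a4 load the cell with chloride and bicarbonate across the basolateral membrane. Cftr, opened by cyclic nucleotides, and Ano1, opened by calcium, let these anions out at the apical side, while Kcnq1 and Kcnn4 return potassium at the base and so hold the voltage that drives anions out. Absorption of salt without a current is done by pairs of apical exchangers, in which Slc9a3 or Slc9a2 takes up sodium for protons and Slc26a3 or Slc26a6 takes up chloride for bicarbonate. In the small intestine secretion is mainly a task of crypt cells and absorption mainly a task of villus cells.

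Facts of the whole array set bear on every value. Control 2 and control 3 were nearly alike: log2 ratios of 1 to the other had an SD of 0.115 over 5131 bright probe sets, against 0.346 to 0.563 for other pairs within a group, and 12 hybridization control probe sets gave 0.0431 for this pair and up to 0.141 for others. Their mean was used as a single replicate, so the fits hold 2 control and 3 replacement replicates. Cdh1, the E-cadherin gene, had intensities of 2757, 2335 and 2204 in the controls and 1073, 1175 and 1357 in the replacement samples, while Cdh2, the N-cadherin gene, stayed at or under 13.5 on all arrays. Whether these probe sets lie in the exchanged sequence is not given, so they check the labels in part only. Epithelial markers reached 16 on all arrays, with summed intensities of 22275 to 23346 in the controls and 25895 to 31348 in the replacement samples for 10 genes that include Vil1, Epcam and Cdh17. Cdx1 of this list had only 119 to 293. Of the 10 differences 9 were above 0, and limma called Krt20 higher (1.35, adjusted p = 0.0274) and none lower. By Xist and Y-linked genes control 1 and replacement 2 and 3 read as female and control 2 and 3 and replacement 1 as male. Xist had 2305, 27.8 and 29.3 in the controls and 37.5, 440 and 578 in the replacement samples. Eif2s3y, a Y-linked gene, had 0.3, 410 and 418 in the controls and 114, 2.2 and 0.9 in the replacement samples. These signals were weaker in the replacement samples, so the sexes are less sure there. The sexes so read were not balanced between the groups, and the differences within each sex are given beside the members. Gut region markers differed between the groups and between arrays. Of 7 markers of the ileum and distal small intestine limma called Cubn (log2 difference -1.47, adjusted p = 0.00943) and Slc51b (-1.65, adjusted p = 0.0135) lower and none higher. At an unadjusted p under 0.05 by limma 1 was higher, Slc10a2, which was under the floor in all controls. Of 8 markers of duodenum and jejunum it called Pdx1 (at least 2.05, adjusted p = 0.00989) and Adh6a (1.97, adjusted p = 0.0136) higher and none lower. At an unadjusted p under 0.05 by limma 2 were lower, Lct (-0.87) and Cybrd1 (-0.67). Both lists had medians below 0: -0.37 for the 7, of which 2 differences were above 0, and -0.44 for the 8, of which 3 were. The Pdx1 difference is a lower bound, since control 3 had 12.9, under the floor of 16. Fabp6, a bile acid binding protein of the ileum, was at 0.3 in control 1, at 808 and 824 in control 2 and 3, and at 267, 287 and 686 in the replacement samples. The part of sex and of gut region in the values below was not tested. In bulk RNA of this kind fewer cells of a type and less RNA per cell cannot be told apart.

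Each difference below is the mean log2 intensity of the replacement samples less that of the controls, after intensities under 16 were set to 16, and the SE is that of the moderated limma fit with n = 2 and 3. Of the 10 genes 7 had differences above 0 and 3 below. The median difference of the 10 was 0.70, beside -0.02 over the 12994 genes tested, and 3 were more than 2-fold higher and none more than 2-fold lower, where 4.73% and 5.37% of all genes were. In 7 genes all replacement arrays lay above all control arrays and in 2 all lay below, where 17.8% and 18.8% of all genes did so (36.6% in either direction). Of the 20 kept probe sets 11 were higher on all arrays and 3 lower, where 18.2% and 16.4% of all kept probe sets were. Since the genes were chosen on this contrast, nothing is read from those counts.

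**Figure D1:**
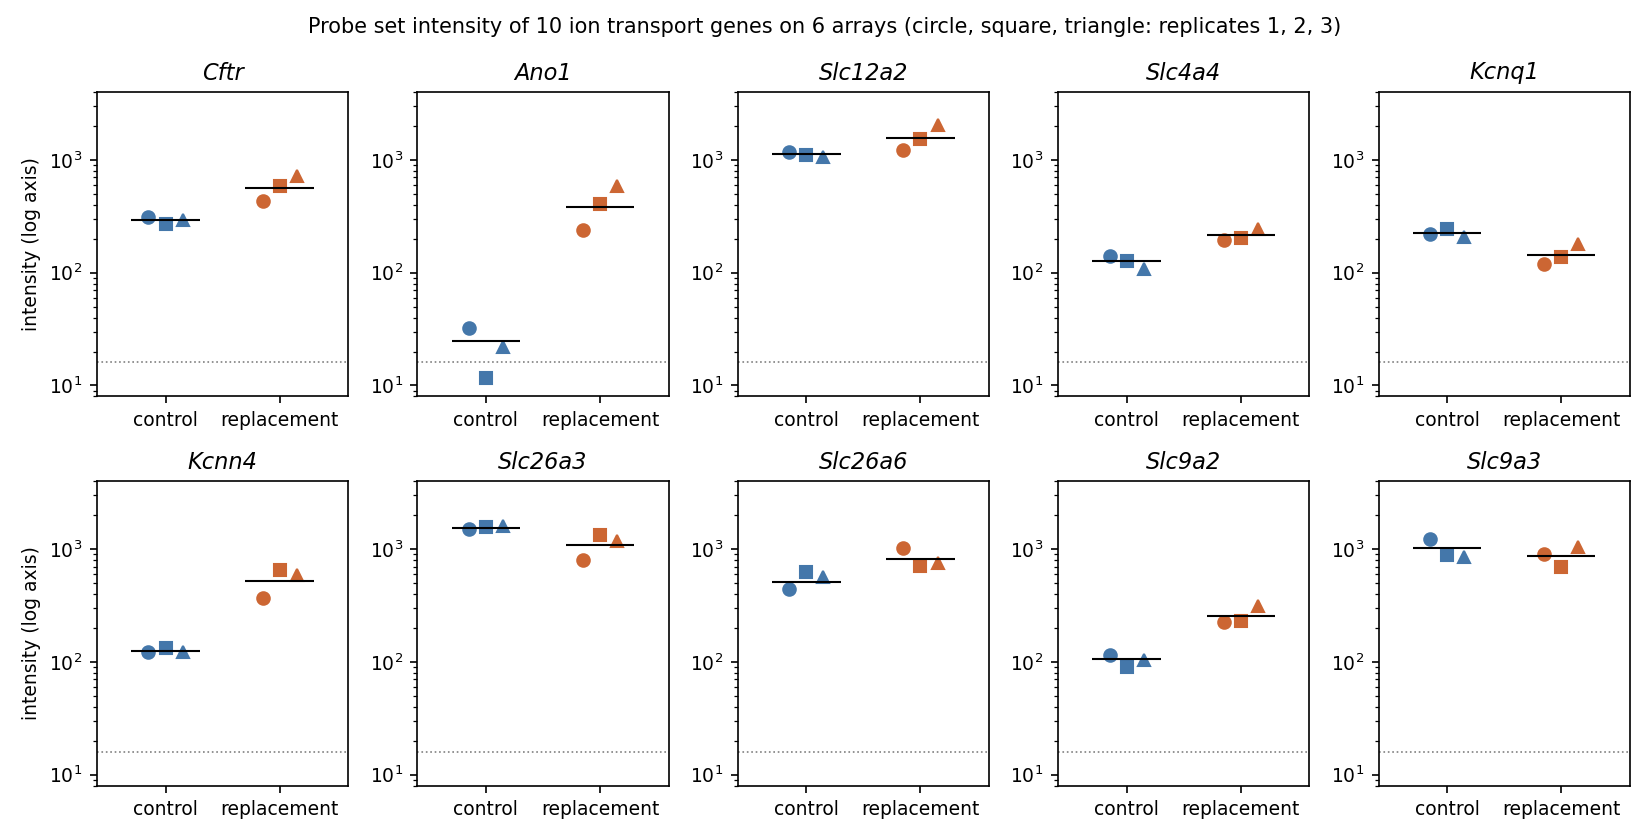
Intensity of the probe set that stands for each of the 10 genes (log axis) on the 3 control (blue) and 3 replacement (orange) arrays; circle, square and triangle are replicates 1, 2 and 3, the bar is the geometric mean after flooring with control 2 and 3 counted as 1, and the dotted line is the floor of 16. Ano1, Kcnn4 and Slc9a2 stand furthest apart between the groups, and in Slc9a3 the groups overlap.

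The promoters of Ano1 and Kcnn4, the genes with the largest differences, and of Slc26a3, an exchanger that was lower, are shown so that their sequence can be set beside the values. Each is the 250 bases before a transcript start that RefSeq lists on assembly GRCm38.p6, 5′ to 3′ on the strand of the gene. Ano1 is at chr7:144738574-144738823 on the minus strand, Kcnn4 at chr7:24370013-24370262 and Slc26a3 at chr12:31437969-31438218, both on the plus strand. Capitals mark every match to the motifs searched on both strands.
Ano1: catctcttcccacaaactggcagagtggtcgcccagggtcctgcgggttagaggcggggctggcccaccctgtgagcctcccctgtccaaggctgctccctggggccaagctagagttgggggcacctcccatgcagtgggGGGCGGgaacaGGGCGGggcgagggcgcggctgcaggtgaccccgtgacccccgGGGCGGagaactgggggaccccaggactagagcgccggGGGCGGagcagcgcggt
Kcnn4: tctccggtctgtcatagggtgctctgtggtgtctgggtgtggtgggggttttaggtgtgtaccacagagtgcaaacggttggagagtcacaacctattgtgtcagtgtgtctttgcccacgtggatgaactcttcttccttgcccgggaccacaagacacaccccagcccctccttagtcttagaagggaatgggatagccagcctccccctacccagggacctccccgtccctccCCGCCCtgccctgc
Slc26a3: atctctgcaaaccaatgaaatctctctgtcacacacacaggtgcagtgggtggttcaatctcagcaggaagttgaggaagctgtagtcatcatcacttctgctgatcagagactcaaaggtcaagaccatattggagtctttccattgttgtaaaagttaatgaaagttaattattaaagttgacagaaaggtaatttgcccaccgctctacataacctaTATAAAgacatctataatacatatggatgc

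The motifs were the AP-1 site TGANTCA, the CREB site TGACGTCA, the GC box GGGCGG, the TATA box TATAAA and the CDX site TTTATNG, and none of the matches to different motifs overlapped in these windows. The Ano1 window held 4 GC boxes, which began 109, 98, 55 and 17 bases before the start, and the Kcnn4 window held 1 on the opposite strand, which began 14 bases before it. The Slc26a3 window held no GC box and a TATA box that began 30 bases before the start. RefSeq windows were given for 7 of the 10 genes, 8 windows in all, and 6 of the 8 held a GC box, where 32.7% of all 32851 windows of this length did. A TATA box was in 1 of 8 and in 12.4% of all. The AP-1, CREB and CDX letters were in none of the 8 and in 6.75%, 1.55% and 9.81% of all windows. A match is a description of these letters only.

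Among the channels of the apical membrane, Ano1 had the largest difference of the 10 genes and Cftr a smaller one in the same direction. Ano1, the calcium-activated chloride channel, was read by probe set 1459713_s_at at 32.3, 11.7 and 21.8 in the controls and at 239, 408 and 590 in the replacement samples. The lowest replacement array was above the highest control array by a wide margin, and control 2 lay under the floor. The geometric mean was thus higher by at least 15.7-fold (3.97 on the log2 scale, SE 0.390, as a lower bound), and 0.112% of all genes had a difference at or above this one. The other probe set of Ano1, 1426571_at, gave 5.4, 1.6 and 2.4 in the controls, all under the floor, and 67.7, 93.5 and 126 in the replacement samples, at least 5.80-fold higher. With all controls under 16, this dimmer probe set was kept through the replacement arrays only. The filter thus fixed its direction and its lack of overlap, so it is no further check.

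Cftr, the cyclic AMP-regulated chloride and bicarbonate channel that is defective in cystic fibrosis, stood at 310, 268 and 291 in the controls and at 436, 590 and 716 in the replacement samples (probe set 1420579_s_at). All replacement arrays lay above all controls, and the spread was wider among the replacement arrays. The geometric mean was 294 in the controls and 569 in the replacement samples, a log2 difference of 0.95 (SE 0.270) or 1.93-fold. Within females the difference was 1.07 and within males 0.64, from 1 control replicate in each sex. The second Cftr probe set was under the floor on 5 of 6 arrays and had at most 18.8, so it says nothing of a difference.

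Ano1 is also a marker of interstitial cells of Cajal, the pacemaker cells of the gut wall. Of 8 other markers of those cells 4 were tested. Etv1 had no usable probe set. Hcn4 was read by a probe set of Hcn3, a different gene, under the floor on all arrays, so Hcn4 itself was not measured. Of the 4 tested none was called by limma at an adjusted p under 0.05, and 1 was lower and none higher at an unadjusted p under 0.05. All 4 differences were below 0, and the summed intensity of the list was 459 to 526 in the controls and 308 to 335 in the replacement samples. That gap lay in Entpd2, which had 313, 319 and 343 in the controls and 204, 186 and 167 in the replacement samples. Without Entpd2 the sums overlapped, at 213, 140 and 146 in the controls and 120, 150 and 142 in the replacement samples. Kit, which defines these cells, stood at 55.2, 38.9 and 38.5 in the controls and at 28.0, 42.0 and 34.4 in the replacement samples, so the groups overlapped, while Cacna1h was under the floor on all arrays. Markers of smooth muscle summed to 189 to 386 in the controls and 168 to 285 in the replacement samples, those of fibroblasts to 569 to 1778 and 619 to 696, those of endothelium to 150 to 407 and 173 to 271, those of enteric neurons and glia to 157 to 203 and 105 to 126, and those of leukocytes to 2700 to 3073 and 1051 to 1732. No gene of these 5 lists was called higher by limma, with 0 higher at an unadjusted p under 0.05 too. The leukocyte sum was mostly Csf1r, with 2427, 2443 and 2504 in the controls and 1271, 777 and 738 in the replacement samples, and without it the sums overlapped, at 646, 257 and 215 against 460, 313 and 313. Genes called lower were Fbln1 among the fibroblast genes, S100b among the glial genes and Csf1r among the leukocyte genes.

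On the loading side both transporters were higher in the replacement samples, by less than 2-fold. Slc12a2, the sodium-potassium-chloride cotransporter that brings chloride in at the base, stood at 1181, 1100 and 1066 in the controls and at 1219, 1526 and 2044 in the replacement samples (probe set 1417622_at). Replacement 1 was only just above control 1. The log2 difference was 0.46 (SE 0.273), 1.38-fold, and it was 0.58 within females and 0.17 within males. The 2 dimmer probe sets gave differences of 0.79 and 0.62, each with groups that overlapped.

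Slc4a4, the sodium-bicarbonate cotransporter, was read by 5 probe sets, 4 of which were kept. The brightest, 1434096_at, stood at 139, 127 and 109 in the controls and at 197, 204 and 244 in the replacement samples, without overlap. Its log2 difference was 0.74 (SE 0.238), 1.67-fold, with 0.68 within females and 0.74 within males. The other kept probe sets gave 1.05, 0.60 and 0.28, the last with overlapping groups. The 4 probe sets of this gene thus ranged from 0.28 to 1.05, all above 0.

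The potassium channels went in opposite directions. Kcnn4, the calcium-activated potassium channel of intermediate conductance, stood at 122, 132 and 123 in the controls and at 370, 651 and 589 in the replacement samples (probe set 1435945_a_at). The controls were close together and every replacement array lay far above them. The geometric mean was 125 in the controls and 522 in the replacement samples, 4.19-fold higher (log2 difference 2.07, SE 0.287), and 0.912% of all genes had a difference at or above this one. The second probe set, 1421038_a_at, gave 68.8, 53.1 and 68.1 against 208, 258 and 259, or 3.74-fold. Within females the difference was 2.34 and within males 1.54. Kcnq1, the cyclic AMP-regulated potassium channel, stood at 222, 244 and 207 in the controls and at 118, 137 and 180 in the replacement samples, 1.56-fold lower (log2 difference -0.65, SE 0.256, probe set 1449464_at). All replacement arrays lay below all controls. Within females the difference was -0.50 and within males -0.93.

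**Figure D2:**
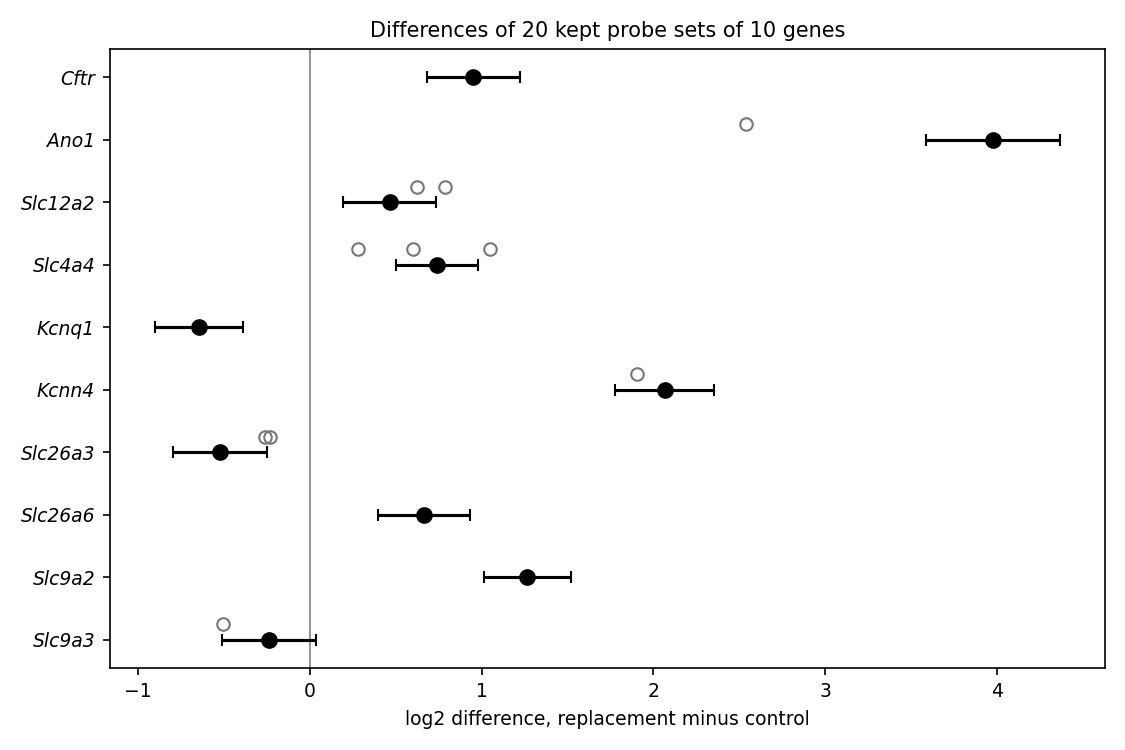
Log2 difference, replacement minus control, of the 20 kept probe sets of the 10 genes; filled points with bars are the probe set that stands for the gene and its SE (n = 2 and 3), and open points are other probe sets of the same gene. Kept probe sets of a gene lie on the same side of 0 for each gene that has several, from -0.65 for Kcnq1 to 3.97 for Ano1. The dimmer probe set of Ano1 was kept through the replacement arrays only, which fixed its side.

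The apical anion exchangers also differed from each other in direction. Slc26a3, the chloride-bicarbonate exchanger whose loss causes congenital chloride diarrhoea, had 4 probe sets, of which 3 were kept. The brightest, 1429467_s_at, stood at 1511, 1568 and 1618 in the controls and at 800, 1331 and 1179 in the replacement samples, 1.44-fold lower (log2 difference -0.52, SE 0.274). The groups did not overlap, but replacement 1 was far below the other replacement arrays, and the difference was -0.31 without it. Within females it was -0.27 and within males -0.99. The other kept probe sets gave -0.26 and -0.23 with overlapping groups. They also disagreed on control 1: 1427547_a_at had 741 there against 313 and 357 in control 2 and 3, a log2 gap of 1.15, while 1429467_s_at and 1421445_at had gaps of -0.08 each. The array thus read a difference between the controls with 1 probe set of Slc26a3 that it did not read with the others.

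Slc26a6, an exchanger of chloride for bicarbonate or oxalate, stood at 442, 623 and 569 in the controls and at 1014, 708 and 747 in the replacement samples (probe set 1416275_at). The groups did not overlap, but control 2 came near to replacement 2. The log2 difference was 0.66 (SE 0.266), 1.58-fold, and it was 0.45 without control 1 and 0.88 without control 2 and 3. Within females it was 0.72 and within males 0.77. Slc26a6 was the only 1 of the 10 genes with its highest value in replacement 1.

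Of the sodium-proton exchangers Slc9a2 was higher in the replacement samples and Slc9a3 differed by less than its SE. Slc9a2, an isoform of apical membranes, stood at 115, 89.6 and 105 in the controls and at 227, 229 and 314 in the replacement samples (probe set 1437259_at). The groups lay clearly apart, with a 2.41-fold higher geometric mean (log2 difference 1.27, SE 0.253), and the difference was 1.22 within females and 1.23 within males. Slc9a3, the main absorptive isoform of the brush border, stood at 1219, 892 and 854 in the controls and at 906, 701 and 1055 in the replacement samples (probe set 1441236_at), with groups that overlapped. Its log2 difference was -0.24 (SE 0.273). It was -0.50 within females, 0.05 within males and 0.00 without control 1, so its direction rested on that array. The dimmer Slc9a3 probe set gave 28.6, 20.5 and 20.8 in the controls and 19.6, 14.0 and 12.3 in the replacement samples, near the floor.

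**Figure D3:**
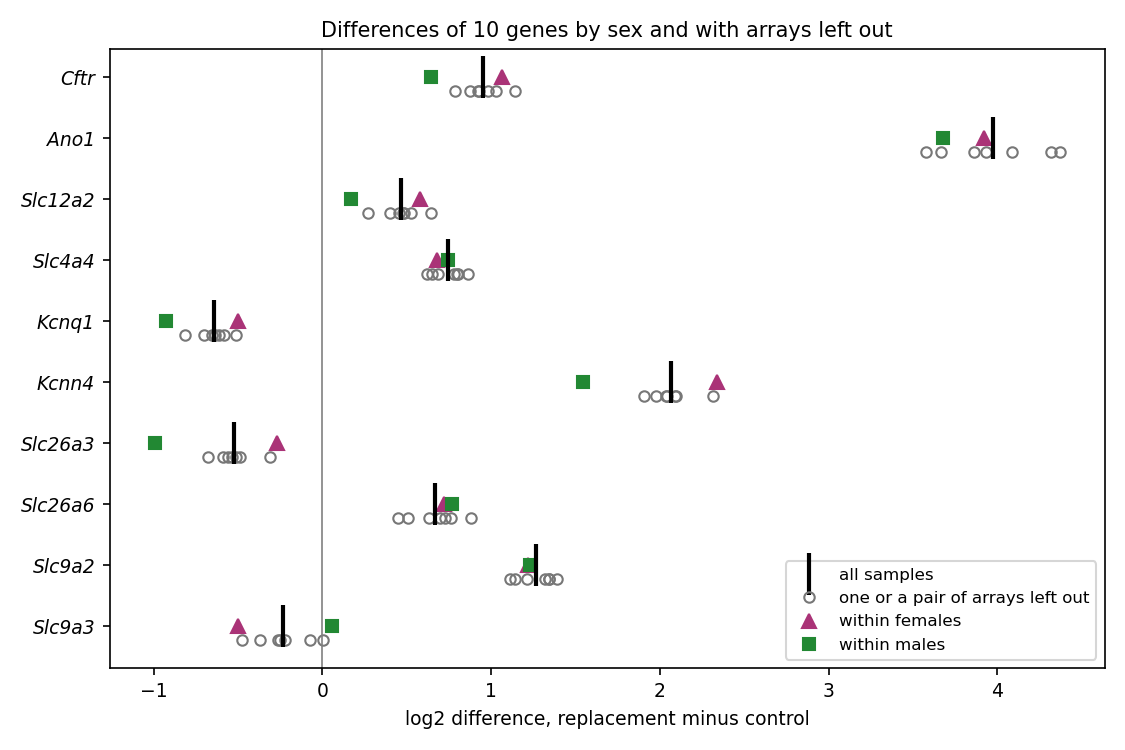
Log2 difference, replacement minus control, of the probe set that stands for each of the 10 genes: black bars use all samples, triangles the females (control 1 against replacement 2 and 3), squares the males (the mean of control 2 and 3 against replacement 1), and open circles fits with arrays left out. Slc9a3 alone has values on both sides of 0, and Kcnn4 is further from 0 in females (2.34) than in males (1.54), while Slc26a3 is further in males (-0.99) than in females (-0.27); differences between the sexes were not tested.

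The replacement arrays were not alike in these genes. Replacement 1, the male, had the lowest value of the 3 in 8 of the 10 genes and replacement 3 the highest in 7. Over all genes replacement 1 was the lowest in 39.5%, a share raised by ties at the floor, which were counted for the lowest replicate number. The share of all genes that were highest in replacement 3 was not taken. In Ano1 the highest replacement array was 2.47-fold above the lowest, in Kcnn4 1.76-fold, in Slc12a2 1.68-fold, in Slc26a3 1.66-fold and in Cftr 1.64-fold, and in Slc4a4 only 1.24-fold. Slc26a6 and Slc9a3 were lowest in replacement 2 instead. Of the 3 genes with differences below 0, Kcnq1 was lowest in replacement 1 and highest in replacement 3, while Slc26a3 was lowest in replacement 1 and highest in replacement 2.

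Other genes of ion transport were taken from 6 lists by role, 168 genes in all that exclude the 10. Of these 106 were tested, 11 rose and 7 fell by limma at an adjusted p under 0.05, which is 10.4% and 6.60%, where 4.46% of all genes rose and 4.66% fell. In either direction 17.0% of them were called, where 9.12% of all genes were. Since the lists were chosen with earlier results of these data known, nothing is read from those shares. The median difference of the 106 was -0.08, beside -0.02 for all genes, and 42 of the 106 differences were above 0. All 18 called genes had groups that did not overlap, as had 36.6% of all genes, but a call from so few arrays favours such groups. Groups without overlap must have the same direction within females and within males. The agreement of the 18 between the sexes is thus no further check. The calls depended on having more than 1 control replicate: 17 of the 18 were lost without control 1 and all 18 without control 2 and 3. Either step leaves a lone control replicate, which is assumed to vary like the replacement samples, so the spread then comes from the replacement samples only. The differences themselves stayed at 0.798 to 1.27 times their size without control 1 and at 0.729 to 1.20 times without control 2 and 3. At an unadjusted p under 0.05 limma gave 16 higher and 17 lower genes with all samples, 14 and 15 without control 1, and 12 and 15 without control 2 and 3. Adjusted, the counts were 1 and 0 without control 1, 0 and 0 without control 2 and 3, and 12 and 11 without replacement 1. Leaving out replacement 2 gave 7 and 3, and leaving out replacement 3 gave 6 and 2. Of the 18 calls 15 were lost without the filter on dim probe sets and 12 with the floor at 32.

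In the list of chloride channels and their regulators 1 of 21 tested genes rose and 1 fell, with a median of -0.13. Clcn2, a voltage-gated chloride channel of the gut epithelium, had 70.3, 58.6 and 63.1 in the controls and 243, 268 and 279 in the replacement samples, a 4.02-fold rise (log2 difference 2.01, SE 0.230, limma adjusted p = 0.000995). Clcn7, a chloride-proton exchanger of lysosomes, had 157, 231 and 241 in the controls and 106, 80.6 and 87.4 in the replacement samples (-1.09, SE 0.267, limma adjusted p = 0.0353). Clca1, a secreted goblet cell protein that modulates calcium-activated chloride currents, had a difference of 0.23 (limma adjusted p = 0.619). Ano6, Ano9 and Ano10, relatives of Ano1, had -0.13, -0.73 and -0.08. Neither Clca1 nor any of these relatives was called.

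In the list of anion exchangers and bicarbonate transporters 2 of 10 rose and none fell by limma, with 1 lower at an unadjusted p under 0.05 and a median of -0.22. Slc13a1, a sodium-sulfate cotransporter of apical membranes, had 22.3, 14.3 and 17.5 in the controls and 284, 309 and 268 in the replacement samples, which puts the replacement samples at least 14.8-fold above (3.89 or more on the log2 scale, SE 0.242, limma adjusted p = 4.76e-05). Control 2 lay under the floor. Slc4a11, a transporter of the bicarbonate transporter family that conducts protons, had a difference of 1.12 (SE 0.233, limma adjusted p = 0.0175). Neither carries chloride or bicarbonate as its main task. Slc4a2, a basolateral anion exchanger, had -0.35 and Slc26a2, a sulfate transporter, -0.54, and neither was called.

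Carbonic anhydrases, which form the bicarbonate and protons that the exchangers move, gave 2 rises among 11 tested genes and no fall by limma, with 1 lower at an unadjusted p under 0.05. Car2, the main cytosolic form, had 55.7, 33.1 and 35.0 in the controls and 237, 291 and 231 in the replacement samples, 5.77-fold higher (log2 difference 2.53, SE 0.278, limma adjusted p = 0.000839). Car9, a form on the cell surface, had 101, 73.4 and 70.9 against 427, 546 and 379, 5.21-fold higher (2.38, SE 0.269, limma adjusted p = 0.000946). The replacement arrays of both genes lay close together. The median of the list was -0.10, and the other 9 were not called, of which Car12 had 0.60 and the mitochondrial Car5a -1.20 (limma adjusted p = 0.0529).

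In the list of sodium entry and the sodium pump none of 14 tested genes rose by limma and 2 fell, with 2 higher and 4 lower at an unadjusted p under 0.05. Scnn1a, the alpha subunit of the epithelial sodium channel, had 403, 284 and 326 in the controls and 144, 93.8 and 116 in the replacement samples (log2 difference -1.59, SE 0.271, limma adjusted p = 0.00708). Sgk3, a kinase that stimulates sodium channels and exchangers, had 471, 503 and 530 against 119, 136 and 172 (-1.81, SE 0.250, limma adjusted p = 0.00248). The beta and gamma subunits Scnn1b and Scnn1g did not reach the intensity needed for testing. The sodium pump subunits Atp1b1 (0.63) and Atp1b3 (0.47) were not called.

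In the list of potassium channels and transporters 4 of 14 tested genes rose and none fell by limma, with 2 lower at an unadjusted p under 0.05. Kcne3, the subunit that keeps Kcnq1 open in gut epithelium, had 209, 191 and 204 in the controls and 465, 488 and 376 in the replacement samples (log2 difference 1.12, SE 0.237, limma adjusted p = 0.0195). Its channel partner Kcnq1 was lower in the same samples, as given above. Kcnk1 rose by 1.86 (SE 0.249, limma adjusted p = 0.00209) and Kcnk6 by 1.64 (SE 0.240, limma adjusted p = 0.00316), both potassium channels of the tandem-pore family. Slc12a8, a member of the cation-chloride cotransporter family, rose by 1.32 (SE 0.236, limma adjusted p = 0.00932). The median of the list was 0.01, and Kcnma1, the large-conductance channel, had -0.66 and was not called.

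**Figure D4:**
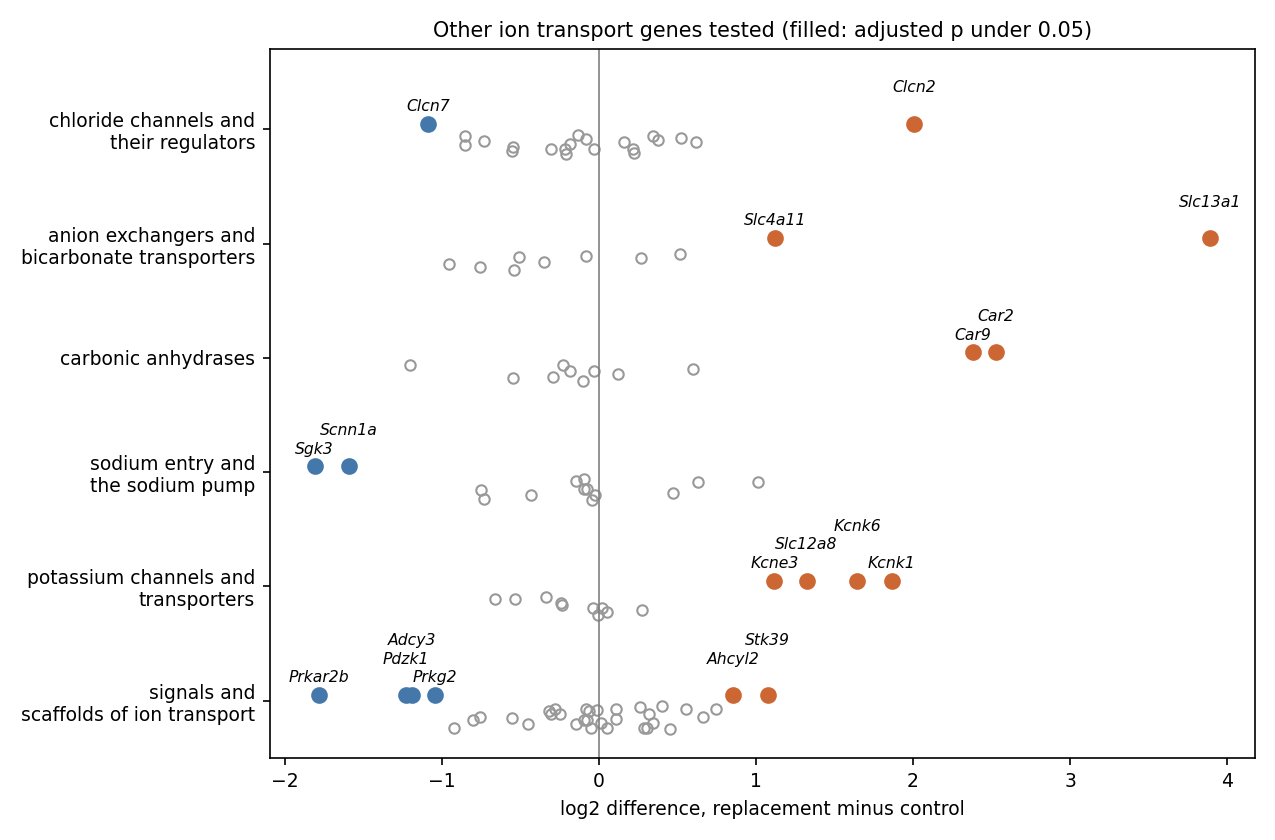
Log2 difference, replacement minus control, of the 106 tested genes in 6 lists of ion transport outside the 10 genes; filled orange points rose and filled blue points fell by limma at an adjusted p under 0.05, and open points were not called (scattered vertically for visibility). Called genes are named: 11 lie above 0 and 7 below.

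Among the signals and scaffolds of ion transport 2 of 36 tested genes rose and 4 fell, with a median of -0.06. Pdzk1, a scaffold that ties Slc9a3, Cftr and the Slc26 exchangers to the brush border through PDZ domains, had 1431, 1617 and 1669 in the controls and 833, 611 and 553 in the replacement samples (log2 difference -1.23, SE 0.260, limma adjusted p = 0.0193). The other scaffolds of that kind, Slc9a3r1 (-0.32), Slc9a3r2 (-0.06) and Pdzd3 (-0.75, limma adjusted p = 0.0769), were not called. Prkg2, the cyclic GMP-dependent kinase that opens Cftr and inhibits Slc9a3, had 1573, 1801 and 1770 against 842, 924 and 687 (-1.05, SE 0.243, limma adjusted p = 0.0279). Gucy2c, the receptor that makes cyclic GMP in these cells, had -0.92 (limma adjusted p = 0.0744) and its ligands Guca2a and Guca2b -0.10 and -0.80, none of them called.

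On the cyclic AMP side Prkar2b, a regulatory subunit of protein kinase A, had 50.8, 60.7 and 58.8 in the controls. It lay under the floor on all replacement arrays, which puts them at least 3.44-fold below (-1.78 or beyond on the log2 scale, SE 0.227, limma adjusted p = 0.00167). Prkar2b was kept through the controls only, which fixed its direction, and its replacement values were all set to 16. Its SE and p-value thus take no spread from the replacement samples, though it is counted among the falls. Adcy3, an adenylyl cyclase, fell by 1.19 on the log2 scale (SE 0.320, limma adjusted p = 0.0489). Stk39, a kinase that activates Slc12a2, rose by 1.07 (SE 0.246, limma adjusted p = 0.0266). Ahcyl2, a relative of the Slc4a4 activator Ahcyl1, had 0.86 (SE 0.232, limma adjusted p = 0.0496), but its 3 kept probe sets ranged from -0.02 to 0.94. The calls of Adcy3 and Ahcyl2 were the closest to the threshold of the 18, and were lost in 9 and 11 of the 17 alternatives with a test.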

How the data were processed

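The deposited table holds linear probe set intensity values, which the authors had scaled: trimmed by 2% at each end, every array averages 100. GCRMA and limma are named, without versions, per the submitters' processing notes. How probes were summarised is not given in the sources. Between 55.1% and 61.8% of probe sets of an array reached 16. Values were floored at 16 and log2 was taken. A floor understates differences of dim transcripts, so folds from floored groups are given as "at least". Probe sets that reached 16 on at least 3 of 6 arrays were kept, and those with 1 gene in the platform annotation (22603) gave 12994 genes, each read by its probe set with the highest mean. Names were updated through the RefSeq gene table of GRCm38.p6. The fit was limma 3.58.1 in R 4.3.3 (lmFit, eBayes) with Benjamini-Hochberg adjustment over all genes and a threshold of 0.05; it was tested on simulated data. Figures were drawn with matplotlib 3.10.9.

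The members and lists were chosen with earlier results of these data known. Named genes are the 10 members, Cdh1 and Cdh2, the called genes of each list (up to 6, by p) and the PDZ scaffolds; other named genes were chosen after their values were seen. Replicate numbers occur in both groups, but samples of the same number did not deviate together (correlations of -0.02, -0.00 and -0.05). Precision is limited by how few arrays there are.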

Additional observations from a re-analysis of the deposited data

How the results depend on the processing

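Over 19 alternatives the 10 ion transport genes gave 190 differences, of which 185 moved by less than the spread between replicates and 5 by more, and the direction turned in Slc9a3 only (within males and without control 1). The 5 were Ano1 with the mean of its probe sets (3.25) and Cftr, Kcnn4, Kcnq1 and Slc26a3 within males. The median of the 10 stayed between 0.66 and 0.77. Counts of called genes moved more. With all 6 arrays as separate replicates 1118 genes rose and 1234 fell, and 14 ion transport genes of the lists fell. With the replicate number as a block 994 and 1108 did, and 14 and 15 of the lists. With no filter on dim probe sets the counts were 70 and 92, and 2 and 1 of the lists. With the floor at 32 they were 143 and 148, and 5 and 1 of the lists, and with the floor at 1 the falling genes were 348 and 4. Leaving out 1 array gave 8 to 827 rising and 3 to 833 falling genes, and 1 to 12 and 0 to 11 of the lists, the lowest each time without control 1 (14 and 15 list genes at an unadjusted p under 0.05 by limma). Without control 2 and 3 together the counts were 3 and 1, and 0 and 0 of the lists (12 and 15 unadjusted, against 16 and 17 with all samples); either leaves a lone control replicate, assumed to vary like the replacement samples. The 18 called list genes kept their direction under each of the 17 alternatives with a test that gave them a value. Their groups did not overlap, so leaving out or averaging arrays could not turn the direction, and those alternatives are no check of it. The causes were not tested. Dim probe sets near 16 are the least certain.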
